A study of Macaca mulatta with 4 samples.

Results

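The genes described here are 5 transcription factors of the developing front of the eye: FOXC1, FOXC2, LMX1B, TFAP2A and TFAP2B. They were chosen by name, with earlier results of these data known, so their levels are given as a description and carry no test. All 5 have a row among the 21314 gene rows of the deposited table. The table holds RNA sequencing of RF/6A, an established rhesus macaque (Macaca mulatta) cell line that the labels call chorioretinal and that has been used as a model of endothelium, the lining of blood vessels. All 4 libraries carry the title Static with a number from 1 to 4, came from a single purchased lot and were grown in Dulbecco's medium that held antibiotics and fetal bovine serum (10%, inactivated by heat), at 37 °C in 5% CO2. No treated, genetically altered or second cell type was analysed here, so the comparisons run across libraries and across genes within the same group. Nothing in the labels says whether the 4 libraries came from separate cultures, so each standard deviation (SD) describes the spread between these samples only.

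Cells of the neural crest leave the edge of the forming neural tube, migrate around the optic cup and there, together with head mesoderm, make up the periocular mesenchyme. This tissue gives rise to the corneal stroma and corneal endothelium, the trabecular meshwork that drains the eye, and the stroma of the iris and choroid. FOXC1 and FOXC2 are closely related forkhead factors of that mesenchyme, LMX1B is a LIM-homeodomain factor, and TFAP2A and TFAP2B belong to the AP-2 family, which acts from the neural plate border onward. Changes in the human genes cause anterior segment dysgenesis with glaucoma (FOXC1), lymphoedema with a second row of eyelashes (FOXC2), nail-patella syndrome with glaucoma (LMX1B), branchio-oculo-facial syndrome (TFAP2A) and Char syndrome (TFAP2B). Each of the factors is also active elsewhere: AP-2 factors in epidermis and amacrine cells of the retina, LMX1B in kidney podocytes and in dopaminergic and serotonergic neurons, and FOXC factors in vascular and lymphatic endothelium.

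The libraries held between 20366946 and 20550610 estimated counts. Levels are in CPM, the count of a gene scaled to a common library total, after edgeR's TMM adjustment (trimmed mean of M-values) for composition. A gene was called expressed when none of the 4 libraries fell below 1 CPM. By that rule 52.9% of all 21314 rows were expressed, and 64.2% of the 14654 rows with a symbol, from which the gene lists below were drawn. Where a gene has no count, up to 3 counts remain possible, which is 0.135 to 0.185 CPM depending on the library. This floor and the intervals below cover counting error only. Library 2 stood apart from the others: edgeR's common coefficient of biological variation was 44.7% with all 4 libraries and 13.6% without it, and ribosomal protein genes took 14.98% of its counts against 6.08% to 6.66% in libraries 1, 3 and 4. The values of library 2 are therefore given separately below. Transcript lengths were not available, so the levels of different genes are not ranked against each other.

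Of the 5 factors, 4 were expressed: TFAP2A, FOXC1, FOXC2 and LMX1B. TFAP2B stayed below 1 CPM in every library. The count of 4 was the same with plain CPM, with DESeq2 size factors, at a threshold of 5 CPM in every library (40.3% of all rows passed it) and without any single library. The median of the 5 was 3.67 ± 0.44 log2(CPM + 0.5) (SD, n = 4), beside 1.85 ± 0.21 over all rows. As the genes were picked with their values known, neither the count nor the median is evidence about the group.

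**Figure D1:**
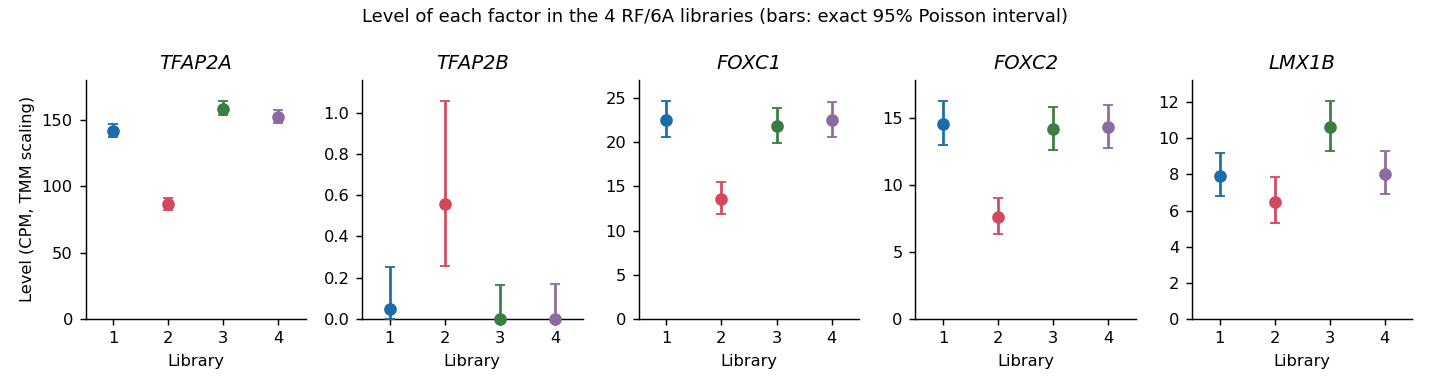
Level of each factor in CPM (TMM scaling, linear axes from 0, a separate scale for each gene) in libraries 1 to 4, with exact 95% Poisson intervals for counting error. TFAP2A, FOXC1 and FOXC2 are lowest in library 2 with intervals apart from the others, LMX1B is highest in library 3, and TFAP2B has 9 counts in library 2 against 1, 0 and 0 elsewhere.

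TFAP2A (ENSMMUG00000006186), the AP-2 factor that helps to set up the neural crest and the face, had 3124, 1409, 3538 and 3379 counts in libraries 1 to 4. These correspond to 142, 86.9, 159 and 153 CPM, a mean of 135 ± 32.9 CPM (SD, n = 4). Library 2 lay below the others, since its exact 95% Poisson interval of 82.4 to 91.6 CPM ended well under their lowest bound, 137 CPM. Library 1, at 137 to 147 CPM, also lay just under libraries 3 and 4, whose intervals were 154 to 164 and 148 to 158 CPM. Without library 2 the mean was 151 ± 8.51 CPM (SD, n = 3), and the SD of the 3 remaining counts, 209, was above the square root of their mean, 57.9, which is the SD that counting alone would give. In the RefSeq annotation of another rhesus assembly (T2T-MMU8v2.0) the TFAP2A gene overlaps 2 long noncoding RNAs, LOC144340573 and LOC100426950. Only gene spans were compared, without exons or strand, and whether counting used strand is not given in the sources used here. Whether reads of these RNAs entered the TFAP2A counts was not tested.

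TFAP2B (ENSMMUG00000002869), its paralog with roles in periocular mesenchyme, limb and ductus arteriosus, had 1, 9, 0 and 0 counts in libraries 1 to 4. Library 2, with 0.555 CPM and an exact 95% Poisson interval of 0.254 to 1.05 CPM, supplied 9 of its 10 counts. Libraries 3 and 4 had none, which allows up to 0.135 and 0.136 CPM at the 3-count floor. The mean of 0.150 ± 0.271 CPM (SD, n = 4) fell to 0.0152 ± 0.0263 CPM (n = 3) without library 2. TFAP2B made up 0.635% of the counts of the AP-2 pair in library 2 (exact 95% binomial interval 0.291% to 1.20%) and 0.032% in library 1 (0.00081% to 0.178%). These intervals do not overlap, but they cover counting error only. AP-2 paralogs are much alike in their DNA-binding part, and reads that fit both are divided by estimation. Whether such reads entered the TFAP2B counts was not tested.

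The rest of the AP-2 family was at or near 0. TFAP2C, the AP-2 factor of surface ectoderm, trophoblast and germ cells, and TFAP2D had no count in any library. TFAP2E measured 0.0910, 0.247, 0.135 and 0.0452 CPM, a mean of 0.129 ± 0.0863 CPM (SD, n = 4), below 1 CPM throughout. Of the 5 AP-2 genes, TFAP2A was thus the 1 called expressed (20%, beside 64.2% of rows with a symbol).

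FOXC1 (ENSMMUG00000005778), the forkhead factor whose dosage matters for the drainage angle of the eye, had 496, 220, 486 and 499 counts in libraries 1 to 4. Its levels were 22.6, 13.6, 21.8 and 22.6 CPM, with a mean of 20.1 ± 4.39 CPM (SD, n = 4). Library 2 was the low one, with an interval of 11.8 to 15.5 CPM against a lowest bound of 19.9 CPM in the others. Without it the mean was 22.3 ± 0.423 CPM (n = 3), and the SD of the 3 remaining counts, 6.81, was smaller than the 22.2 expected from counting alone.

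FOXC2 (ENSMMUG00000019498), which shares its forkhead DNA-binding domain almost unchanged with FOXC1 and also shapes lymphatic valves, had 320, 123, 315 and 317 counts. Its levels were 14.6, 7.59, 14.2 and 14.3 CPM, with a mean of 12.7 ± 3.38 CPM (SD, n = 4). The pattern was that of FOXC1: libraries 1, 3 and 4 together and library 2 below, at an interval of 6.31 to 9.05 CPM against a lowest bound of 12.6 CPM. Without library 2 the mean was 14.3 ± 0.203 CPM (n = 3). In the same RefSeq annotation the span of the FOXC2 gene overlaps that of FOXL1, a forkhead neighbour that matched no row here.

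The balance between the FOXC genes can be read within each library, where it does not depend on scaling and where transcript length cancels when libraries are compared. FOXC2 made up 39.2%, 35.9%, 39.3% and 38.8% of the counts of the pair in libraries 1 to 4, a mean of 38.3 ± 1.65% (SD, n = 4). Library 2 was lowest, but its exact 95% binomial interval of 30.8% to 41.2% included the values of the other libraries. The ratio of FOXC2 to FOXC1 counts ran from 0.559 to 0.648, a range of 1.16-fold, while the level of FOXC1 itself ranged 1.66-fold and that of FOXC2 1.92-fold. Both genes were lower in library 2 with little change in their ratio.

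TFAP2A kept nearly the same relation to FOXC1. The ratio of their counts was 6.30, 6.40, 7.28 and 6.77 in libraries 1 to 4, a range of 1.16-fold, with library 2 between the others. LMX1B, with fewer counts, ranged more widely: its ratio to FOXC1 was 0.351, 0.477, 0.486 and 0.357, a range of 1.38-fold. Libraries 2 and 3 were the higher ones for LMX1B, which did not follow the split between library 2 and the rest. The exact 95% binomial intervals of its share of the pair nevertheless overlapped across all libraries. They were 22.7% to 29.5% in library 1, the lowest, and 29.3% to 36.2% in library 3, the highest.

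**Figure D2:**
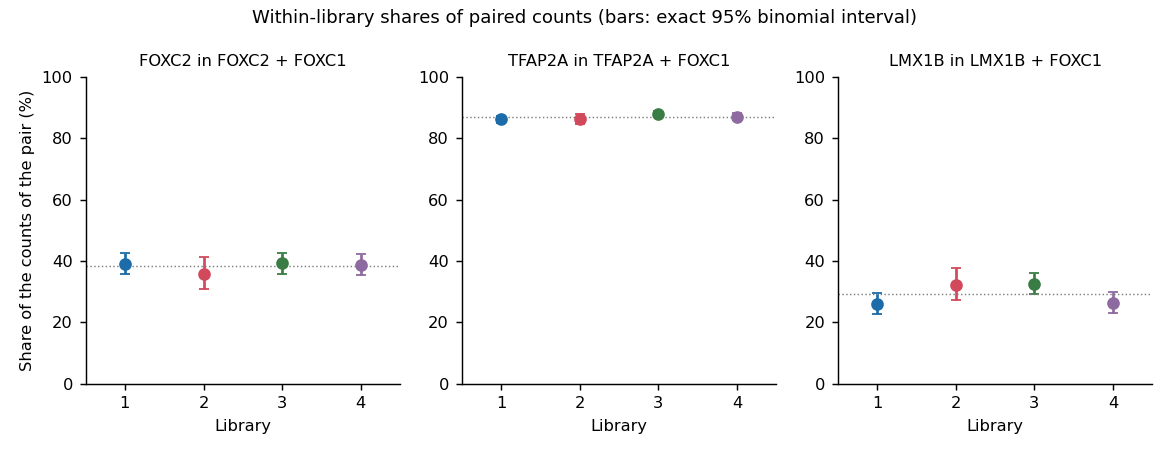
Share of FOXC2, TFAP2A and LMX1B in the summed counts of each with FOXC1, in percent, for libraries 1 to 4; bars are exact 95% binomial intervals and dotted lines the mean of 4 libraries. The FOXC2 share stays between 35.9% and 39.3% and the TFAP2A share between 86.3% and 87.9%, while the LMX1B share moves between 26% and 32.7%.

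LMX1B (ENSMMUG00000002236), the LIM-homeodomain factor needed for the cornea, iris and trabecular meshwork as well as for limb patterning and podocytes, had 174, 105, 236 and 178 counts. Its levels were 7.92, 6.48, 10.6 and 8.05 CPM, with a mean of 8.26 ± 1.72 CPM (SD, n = 4). Library 2 was lowest, but its interval of 5.30 to 7.84 CPM overlapped those of library 1 (6.78 to 9.18 CPM) and library 4 (6.91 to 9.32 CPM). Library 3 was highest, at 9.29 to 12.0 CPM, apart from libraries 1 and 2. Without library 2 the mean was 8.86 ± 1.51 CPM (n = 3), and the SD of its counts in libraries 1, 3 and 4 was 34.7 against 14 from counting alone, so LMX1B and TFAP2A, unlike the FOXC genes, kept a spread above counting error there.

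Among 9 LIM-homeodomain genes with a row, LMX1B and LHX9 were expressed (22.2%, beside 64.2% of rows with a symbol). The other 7, including LMX1A, the closest relative of LMX1B, had no count. LHX9, a factor of gonad and limb, measured 1.91, 1.97, 1.44 and 9.50 CPM in libraries 1 to 4. Its mean of 3.70 ± 3.87 CPM (SD, n = 4) rested on library 4 and was 1.77 ± 0.293 CPM (n = 3) without it. Of 34 forkhead genes with a row, 18 (52.9%) were expressed, beside 64.2% of rows with a symbol. Examples are FOXM1, a cell cycle factor, at 88.1 ± 22.0 CPM, FOXP1 at 85.2 ± 49.9 CPM and FOXO3, a stress-response factor, at 63.8 ± 14.4 CPM. FOXP1 had 11.8 CPM in library 2 against 96.1 to 117 CPM in the others. FOXD3, the forkhead factor of early neural crest, had no count, and FOXE3 of the lens matched no row.

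In library 2 all 4 expressed factors were the lowest of the 4 libraries. The background for this is high, since among the 12453 genes that averaged 1 CPM or more library 2 was lowest for 48.0% with TMM, 59.9% with plain CPM and 47.6% with DESeq2 size factors. That set is wider than the rows called expressed. Of those 11281 rows library 2 was lowest for 5270 with TMM and 6708 with plain CPM. On the log2(CPM + 0.5) scale library 2 differed from the mean of the other 3 by -0.70 for FOXC1, -0.88 for FOXC2, -0.80 for TFAP2A and -0.42 for LMX1B. The median over all those genes was -0.08 with TMM and -0.50 with plain CPM. Relative to that median the factors lay at -0.62, -0.80, -0.72 and -0.35 with TMM and at -0.63, -0.79, -0.74 and -0.34 with plain CPM. Between 29.7% (FOXC2) and 40.9% (LMX1B) of genes lay further down in library 2 with TMM, so shifts of this size were common in that library.

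**Figure D3:**
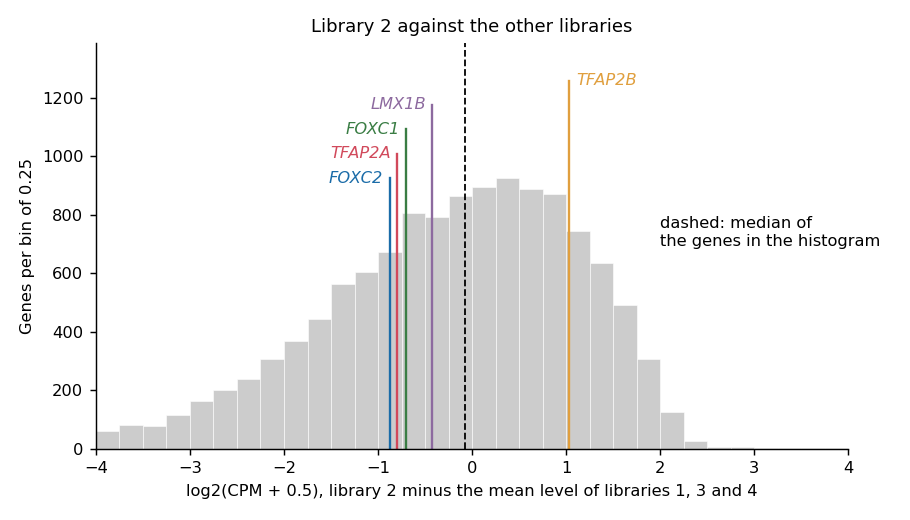
Histogram of the difference in log2(CPM + 0.5) between library 2 and the mean level of libraries 1, 3 and 4 for the 12453 genes that averaged 1 CPM or more, shown from -4 to 4, with lines for the 5 factors (TFAP2B averaged less than 1 CPM and is not in the histogram). The 4 expressed factors lie between -0.88 and -0.42, left of the dashed median at -0.08 and inside the bulk of the distribution.

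Dixon's gap test for a sample apart (critical value 0.829 for 4 samples) set library 2 apart for FOXC1 and FOXC2 on the low side and for TFAP2B on the high side, and for neither TFAP2A nor LMX1B. Over the 12453 genes it set library 2 apart as the lowest for 11.2% (16.7% with plain CPM), and any library apart in either direction for 33.8%. The gene-wise coefficient of biological variation (edgeR) was 34.4% for FOXC1, 36.9% for FOXC2, 33.1% for LMX1B and 34.5% for TFAP2A. Without library 2 it was 10.9%, 12.5%, 17.3% and 8.15%, next to trend values of 13.6%, 15.9%, 18.4% and 9.29% for genes of like abundance. These estimates borrow information across genes, so they stay above the raw spread of FOXC1 and FOXC2.

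Most binding partners of the factors were expressed, 16 of 20 with a row (80%, beside 64.2% of rows with a symbol), with a list median of 4.28 ± 0.30 log2(CPM + 0.5) (SD, n = 4). FLNA, the actin cross-linker filamin A that binds FOXC1, measured 1088 ± 84.8 CPM. LDB1, the adaptor through which LIM-homeodomain factors assemble, measured 68.2, 55.5, 68.2 and 65.9 CPM in libraries 1 to 4. CITED2, an AP-2 coactivator, measured 164 ± 15.7 CPM, and KCTD15, an AP-2 inhibitor, 2.28 ± 0.821 CPM with its highest value, 3.45 CPM, in library 2. The acetyltransferase EP300, a coactivator of AP-2 factors, had 12.5 CPM in library 2 and 101 to 122 CPM in the others. Library 2 was lowest for 7 of the 16 expressed partners with TMM and for 13 with plain CPM. LDB1 and EP300 were lowest there under both scalings and KCTD15 highest under both, whereas FLNA and CITED2 were highest there with TMM and lowest with plain CPM.

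Other transcription factors of periocular and craniofacial mesenchyme were expressed in every case that could be read: 9 of 9 with a row (17 listed), beside 64.2% of rows with a symbol. The list median was 5.37 ± 0.08 log2(CPM + 0.5) (SD, n = 4), beside 1.85 ± 0.21 over all rows, which include rows without a symbol. The list was chosen with earlier results of these data known, so neither the count nor the median is evidence about the group. NR2F2, an orphan nuclear receptor, measured 257, 192, 270 and 268 CPM in libraries 1 to 4, a mean of 247 ± 36.9 CPM. Its relative NR2F1 measured 64.3, 87.5, 71.1 and 74.7 CPM, and the homeodomain factor SIX4 measured 65.7 ± 17.6 CPM. Library 2 was lowest for 5 of the 9 (6 with plain CPM), including NR2F2 and SIX4 under both scalings. NR2F1 was highest there with TMM but not with plain CPM. The 8 members without a row, among them TWIST1, ALX1, ALX4 and PRRX1, were not measured and are not counted as absent.

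**Figure D4:**
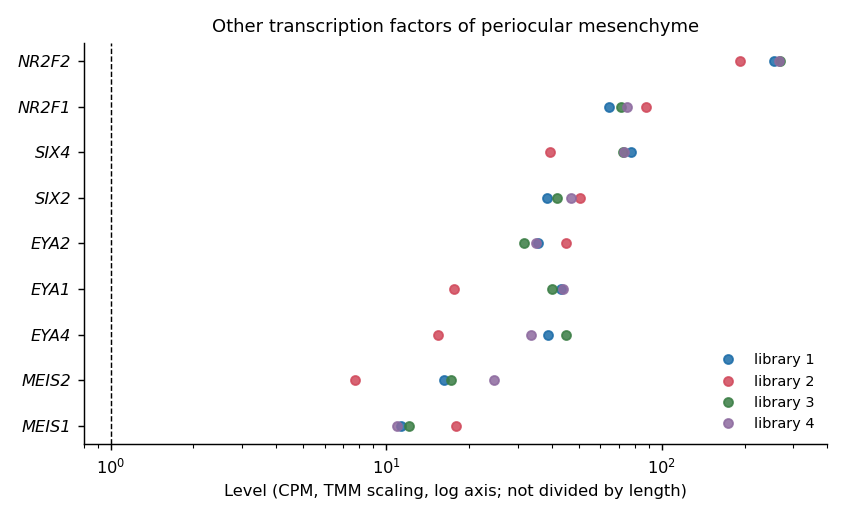
Level in CPM (TMM scaling, log axis, not divided by transcript length) of the 9 other periocular mesenchyme factors with a row, with a point for each library and a dashed line at 1 CPM. All points lie right of the line, and library 2 lies below the other libraries for NR2F2 and SIX4 and above them for NR2F1, the last with TMM scaling only.

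Early neural crest specifiers gave a mixed list, with 6 of 13 genes expressed (46.2%, beside 64.2% of rows with a symbol) and 3 without any count. The list median was -0.09 ± 0.22 log2(CPM + 0.5) (SD, n = 4). SNAI2, the factor of crest migration, measured 102 ± 7.56 CPM, the proto-oncogene MYC 295 ± 76.2 CPM and ETS1 193 ± 96.0 CPM. In library 2 ETS1 had 51.4 CPM against 222 to 261 CPM in the others, and MYC 408 CPM against 250 to 266 CPM. The receptor ERBB3 measured 1019, 3128, 943 and 1050 CPM, and its mean without library 2 was 1004 ± 54.9 CPM (n = 3). PAX3, a factor of the neural plate border, measured 0.155 ± 0.0945 CPM and stayed below 1 CPM, next to the absence of counts for FOXD3. SOX9 and SOX10 matched no row. ZIC1 and ID3, which complete the expressed genes of the list, measured 51.2 ± 1.80 and 27.7 ± 15.2 CPM. Of 15 HOX genes with a row (38 listed), a family that cranial crest of the eye region lacks, 2 were expressed (13.3%, beside the same 64.2%) and 8 had no count. The HOX genes without a row were not measured and are not counted as absent. The expressed ones were HOXC10 at 15.8 ± 1.90 CPM and HOXC6 at 2.35 ± 0.304 CPM.

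Retinoic acid from the optic cup acts on periocular mesenchyme through nuclear receptors. Of 17 genes of its synthesis, breakdown and reception 9 were expressed (52.9%, beside 64.2% of rows with a symbol). The receptors RARA and RARG measured 68.0 ± 3.67 and 46.3 ± 3.20 CPM (SD, n = 4). The synthesizing enzyme ALDH1A3 measured 87.5, 21.7, 88.1 and 79.8 CPM in libraries 1 to 4. DHRS3, a retinaldehyde reductase, measured 35.6, 96.6, 21.2 and 33.6 CPM, and 30.1 ± 7.81 CPM without library 2 (n = 3). Library 2 was thus low for ALDH1A3 and high for DHRS3, and a direction for synthesis or breakdown as a whole was not tested. It was lowest for 6 of the 9 expressed genes of the list with TMM and for 8 with plain CPM. Among all genes that averaged 1 CPM or more it was lowest for 48.0% and 59.9%.

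Of 19 other genes of anterior segment dysgenesis and developmental glaucoma with a row, 13 were expressed (68.4%, beside 64.2% of rows with a symbol). Library 2 was lowest for 11 of these 13 with TMM and for 12 with plain CPM. Among all genes that averaged 1 CPM or more it was lowest for 48.0% and 59.9%. CYP1B1, a cytochrome P450 of congenital glaucoma, averaged 511 ± 177 CPM (SD, n = 4) and was lowest in library 2, at 247 CPM. The gap junction gene GJA1 measured 499 ± 117 CPM, FBN1, which encodes fibrillin, 425 ± 178 CPM and PAX6, the eye field factor, 19.9 ± 2.84 CPM. FBN1 had 163 CPM in library 2 against 473 to 555 CPM in the others. Among genes described elsewhere as targets of FOXC, LMX1B or AP-2 factors, 6 of 12 with a row were expressed (50%, beside 64.2% of rows with a symbol), and 9 of 12 without library 2. The 64.2% includes library 2, and the same share without it was not computed, so the 9 of 12 has no background here. ERBB2, an AP-2 target in breast cells, measured 66.8 ± 10.9 CPM, MMP2 64.3 ± 4.69 CPM and CDH1, the epithelial cadherin, 6.80 ± 1.62 CPM.

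Markers of tissues formed by periocular mesenchyme were expressed at shares near or below the 64.2% of rows with a symbol. The shares were 57.1% for corneal stroma, 66.7% for corneal endothelium and 42.9% for trabecular meshwork. In the corneal stroma list 4 of 7 were expressed, with the matrix genes DCN at 307 ± 40.2 CPM and LUM at 138 ± 13.9 CPM (SD, n = 4), both also made by fibroblasts elsewhere, and the keratan sulphate enzyme CHST6 at 3.76 ± 0.296 CPM. In the corneal endothelium list 4 of 6 were expressed, including ALCAM at 612 ± 116 CPM, COL8A1 at 104 ± 43.97 CPM and CDH2 at 79.1 ± 27.9 CPM, and none of these 3 is particular to that tissue. The remaining expressed gene was SLC4A11 at 4.06 ± 0.527 CPM. Short of the rule were CA2 at 2.13 ± 1.20 CPM, with 0.617 CPM in library 2, and COL8A2 at 0.0567 ± 0.0682 CPM. In library 2 COL8A1 had 39.4 CPM against 119 to 136 CPM in the others, and CDH2 41.1 CPM against 75.3 to 100 CPM. In the trabecular meshwork list 3 of 7 were expressed, PCOLCE2 at 121 ± 8.37 CPM, RARRES1 at 5.22 ± 2.95 CPM and MGP at 3.96, 15.6, 2.56 and 3.80 CPM. The MGP mean of 6.48 CPM became 3.44 ± 0.765 CPM (n = 3) without library 2. MYOC, the defining meshwork gene, measured at most 0.180 CPM.

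Markers of other cell types in which these factors act were mostly low, and each list had a smaller share expressed than the 64.2% of rows with a symbol. In the surface ectoderm list 4 of 9 were expressed, with a summed level of 14.0 to 17.0 CPM per library. They were CDH1, EPCAM at 2.19 ± 0.733 CPM, OVOL1 at 2.94 ± 2.69 CPM (1.60 ± 0.105 CPM, n = 3, without library 2) and KRT12 at 2.93 ± 0.762 CPM. TP63, the factor that defines stratified epithelium, measured 0.0452 ± 0.0522 CPM. In the amacrine list 1 of 6 was expressed, the glycine transporter SLC6A9 at 68.9 ± 6.65 CPM, and the summed level of 59.7 to 74.6 CPM is almost all this gene. In the podocyte list 1 of 4 was expressed, WT1 at 18.0 ± 7.56 CPM, with a sum of 7.90 to 24.5 CPM, and NPHS1 had no count. WT1 had 6.97 CPM in library 2 against 19.5 to 23.6 CPM in the others. In the list of dopaminergic and serotonergic neurons 1 of 6 was expressed, NR4A2 at 5.62 ± 2.52 CPM, with a sum of 3.64 to 8.76 CPM and no count for TH. TFAP2B was highest in library 2, where the surface ectoderm sum was highest with TMM but lowest with plain CPM, and the amacrine sum lowest under both. Their part in the TFAP2B counts was not tested.

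The name chorioretinal covers several cell types of choroid and retina, and their markers, with those of endothelium and fibroblasts, were read in the same way. Of 10 fibroblast and mesenchymal markers all 10 were expressed, beside 64.2% of rows with a symbol. Among them were FN1, COL1A1 and COL1A2 at 11099 ± 5330, 10781 ± 3810 and 8424 ± 1044 CPM (SD, n = 4). In library 2 FN1 had 3228 CPM against 12620 to 14908 CPM in the others, and COL1A1 16445 CPM against 8427 to 9600 CPM. Of 10 endothelial markers 1 was, PECAM1 at 2.49 ± 0.636 CPM, while CDH5 and VWF measured 0.601 ± 0.305 and 0.432 ± 0.282 CPM. Also short of the rule, KDR measured 1.62 ± 0.896 CPM and ERG 0.971 ± 0.392 CPM. KDR had 0.432 CPM in library 2 against 1.49 to 2.50 CPM in the others. The endothelial sum was 5.18 to 8.63 CPM per library and gave 2 expressed genes without library 2. Retinal pigment epithelium markers had 2 of 4, BEST1 at 15.4 ± 11.6 CPM and RPE65 at 1.45 ± 0.396 CPM, with no count for the factor OTX2. BEST1 had 1.48 CPM in library 2 against 15.1 to 29.8 CPM in the others. Melanocyte markers had 1 of 4, PMEL at 36.5 ± 6.34 CPM, with no count for the pigment enzyme TYR. MITF had 0.617 CPM in library 2 against 2.14 to 6.38 CPM in the others, and DCT measured 0.102 ± 0.0932 CPM. Without library 2 the melanocyte list had 2 expressed genes. The share of all rows with a symbol expressed without library 2 was not computed. In bulk RNA, a gene at low level in all cells and at higher level in a few cannot be told apart, so the factors cannot be assigned to a subset of RF/6A cells.

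**Figure D5:**
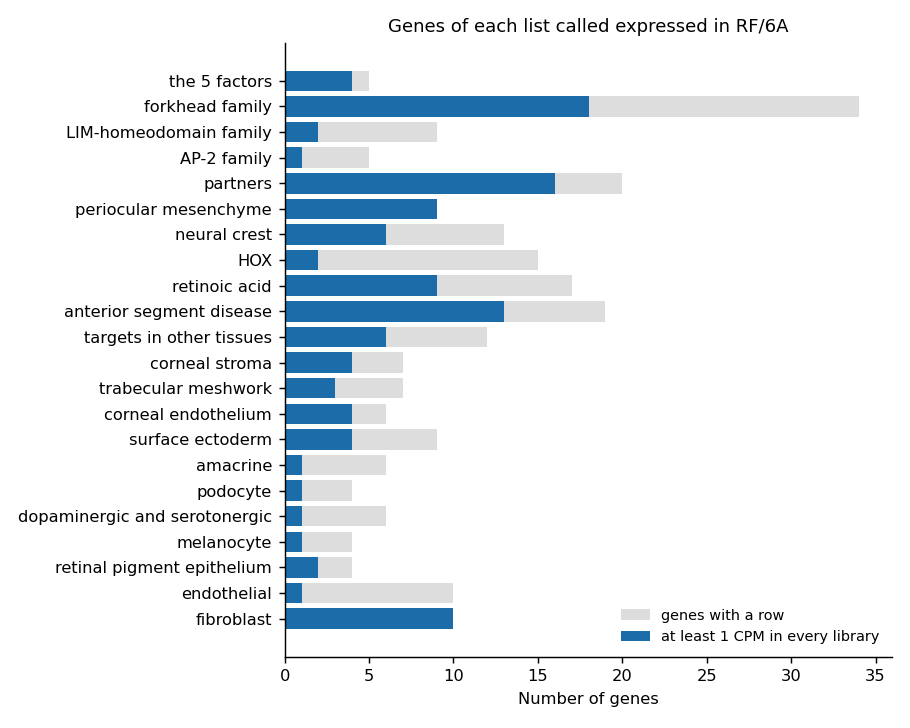
Number of genes with a row (grey) and number at 1 CPM or more in every library (blue) for the 5 factors and 21 other lists. The periocular mesenchyme and fibroblast lists are filled entirely (9 of 9 and 10 of 10), whereas the endothelial list has 1 of 10 and the HOX list 2 of 15. Over all rows with a symbol 64.2% were expressed.

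The factors resembled each other across libraries, but so did many genes. The mean absolute difference of their deviations from their own 4-library mean, in log2(CPM + 0.5), was 0.07 between FOXC1 and FOXC2, 0.07 between FOXC2 and TFAP2A and 0.08 between FOXC1 and TFAP2A. It was 0.19 to 0.26 between LMX1B and the other 3. Among genes with a symbol that averaged 1 CPM or more, 3.44% were closer to FOXC1 than FOXC2 was. The closest genes of all were MVP, DYM and IQUB for FOXC1, CHERP, MARK1 and ZFP62 for FOXC2, WDR89, PPAT and MOBKL1B for TFAP2A, and EGFL8, PAFAH2 and NDRG3 for LMX1B. Of 10198 genes, 7.68% lay within 0.1 of FOXC1, 7.25% of FOXC2, 6.43% of TFAP2A and 1.33% of LMX1B. The likeness rests on 4 libraries, of which library 2 lay furthest from the mean for these factors other than LMX1B.

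Both FOXC genes sit in clusters of forkhead genes. In the RefSeq annotation the next protein-coding genes beside FOXC1 are GMDS on one side and FOXF2 and then FOXQ1 on the other, and FOXC2 lies between MTHFSD and FOXL1, with FOXF1 beyond MTHFSD. FOXF2, a forkhead factor of mesenchyme, measured 10.1, 12.3, 10.3 and 11.8 CPM in libraries 1 to 4, a mean of 11.1 ± 1.08 CPM (SD, n = 4). It was highest in library 2 with TMM, where its neighbour FOXC1 was lowest, but lowest there with plain CPM (9.79 CPM against 10.9 to 12.7 CPM). GMDS, a fucose synthesis enzyme, was highest in library 2 under both scalings, at 25.1 CPM against 8.22 to 9.83 CPM. MTHFSD was lowest in library 2 under both, as FOXC2 was, at 8.20 CPM against 11.9 to 15.4 CPM. FOXQ1, FOXL1 and FOXF1 matched no row. Next to TFAP2B, TFAP2D on one side and PKHD1 on the other had no count in any library.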

How the data were processed

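Total RNA of RF/6A cells was sequenced in 4 libraries (BGISEQ-500, per the labels). The authors deposited estimated counts per rhesus Ensembl gene, already whole numbers. Per the submitters' processing notes the tools were Salmon and DESeq2, listed without version or role. Because Salmon divides reads among transcripts that fit alike, paralogs carry an assignment error. The build, annotation, strand protocol and read length were not given in the sources used here. Symbols came from a table of Ensembl identifiers: 14654 of 21314 rows matched, and rows without a symbol held 13.1% to 21.7% of the counts. Of 284 listed symbols 215 matched. Some genes are not reported here and were left out of the lists.

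Counts were scaled with TMM in edgeR 4.0.16 (R 4.3.3), where dispersions used rows kept by filterByExpr (minimum count 10). Alternatives were plain CPM, DESeq2 1.42.0 size factors, TMM factors from filtered rows, a threshold of 5 CPM, and leaving out each library. The log2 scale had a pseudocount of 0.5 CPM. With 1 group there was no contrast and no p-value. Code was tested on simulated counts. Counts per length could not be computed, and no sequence is shown, since neither lengths of transcripts nor sequences were used here.

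The members and lists were chosen with earlier results of these data known. Named genes are the 5 factors, up to 3 genes of highest mean CPM in each list, a set of fixed names (KRT5, PTF1A, SOX9, SOX10 and TWIST1 matched no row), and the 3 genes closest in pattern to each factor. MYOC, EPCAM, ZIC1, ID3, OTX2, TFAP2D, FOXE3, SLC4A11, CA2, COL8A2 and the chromosomal neighbours fall outside this rule and were named after their values were seen.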

Additional observations from a re-analysis of the deposited data

Results flagged for a closer look

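Dixon's test was run on 83 values (the named genes and the within-library shares), and 18 showed an outlying library. By chance about 1 in 20 would, but over the 12453 genes averaging 1 CPM or more 33.8% did, beside 21.7% of these values. In 17 of the 18 it was library 2, so these are not independent. Of the factors, library 2 was apart for FOXC1 (13.6 CPM, low), FOXC2 (7.59 CPM, low) and TFAP2B (0.555 CPM, high, from 9 counts). The FOXC2 share of the FOXC pair was also apart there, at 35.9%, although its counting interval held the other libraries' values.

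Among other genes, library 2 was low for the enzyme ALDH1A3 (21.7 CPM), CYP1B1 (247 CPM), the matrix gene DCN (247 CPM), the forkhead genes FOXM1 (55.3 CPM) and FOXO3 (42.4 CPM), and the periocular factors NR2F2 (192 CPM) and SIX4 (39.4 CPM). It was high for COL1A1 (16445 CPM), ERBB3 (3128 CPM), MGP (15.6 CPM), MYC (408 CPM), OVOL1 (6.97 CPM) and RARRES1 (9.62 CPM). The remaining value was the LIM-homeodomain gene LHX9, high in library 4 at 9.50 CPM.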

How the results depend on the processing

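No paired analysis was possible because the labels give 1 group. Ratios per coding length were not run, since no lengths were available. Under every scaling and with each library left out, 4 of the 5 factors stayed expressed. The mean of TFAP2B fell from 0.150 to 0.0164 CPM without library 2. Without a library the mean ratio of FOXC2 to FOXC1 lay between -0.71 and -0.64 on the log2 scale. The gene-wise coefficients of variation depended on library 2, whose omission gave the lowest values; over the 4 omissions they ran from 10.9% to 43.97% (FOXC1), 12.5% to 46.1% (FOXC2), 17.3% to 42.8% (LMX1B) and 8.15% to 42.98% (TFAP2A). At 5 CPM, where a stricter threshold can only lower a count, the number expressed fell by more than 1.5 times in the lists of LIM-homeodomain genes (1), HOX genes (1), corneal stroma (2), trabecular meshwork (1), surface ectoderm (0), dopaminergic and serotonergic neurons (0), retinal pigment epithelium (0) and endothelium (0). Smaller falls came in the lists of forkhead genes (15), partners (14), retinoic acid (8), anterior segment disease (10), targets (4) and corneal endothelium (3). Plain CPM left 1 retinal pigment epithelium gene. Without library 2 the melanocyte and endothelial lists had 2 expressed genes each, and the target list 9 in place of 6. The share over all rows without library 2 was not computed, so these rises have no background. Depth limits TFAP2B most, at 10 counts in all.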
